A study of Mus with 6 samples.

Results

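Long non-coding RNAs (lncRNAs) transcribed beside 5 transcription factor genes were followed here: Lhx1os, Paupar, Otx2os1, Prox1os and Zeb2os, which lie beside Lhx1, Pax6, Otx2, Prox1 and Zeb2. They were taken by name from a table of 2282 named RNAs, and all 5 were found there. RNA was measured by sequencing in right substantia nigra pars compacta (SNpc) from mice that overexpress the A53T form of human α-synuclein, a genotype that all 6 samples shared, so no sample without it entered the comparison. The model group (n = 3) was injected intraperitoneally with 0.9% saline every day for 30 days, and the AVE0991 group (n = 3) received AVE0991 at 10 mg/kg on the same schedule. AVE0991 is a small molecule that activates the angiotensin-(1-7) receptor Mas without being a peptide. Age, the promoter or vector driving α-synuclein, and whether each sample was 1 animal are not given in the labels, so the spread between samples may be technical.

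LncRNAs of this kind are read from the same stretch of chromosome as a transcription factor gene, often from the opposite strand, and are often expressed in some of the same cells as that gene. The LIM-homeodomain factor LHX1 marks sets of diencephalic, midbrain and hindbrain neurons, PAX6 patterns the forebrain and its boundary with the midbrain, and OTX2 is needed for forebrain and midbrain identity and stays on in some dopaminergic neurons of the ventral tegmental area. PROX1 takes part in the exit of neural progenitors from the cell cycle, and ZEB2 is a zinc finger transcriptional repressor needed for the development of cortical interneurons and oligodendrocytes. Paupar has been studied as a chromatin-bound partner of PAX6 in neural cells, and Zeb2os is a natural antisense RNA of Zeb2.

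In RefSeq's mouse annotation (GRCm38.p6) all 5 are lncRNA genes. Lhx1os is on chromosome 11, directly next to Lhx1. Paupar is on chromosome 2, directly next to Pax6, and overlaps a second lncRNA of that locus, Pax6os1. Otx2os1 is on chromosome 14, directly next to Otx2, and does not overlap it, but overlaps the RefSeq genes Gm48909, LOC115488448, Gm38660 and Gm22699. Prox1os on chromosome 1 overlaps Prox1, and Zeb2os on chromosome 2 overlaps Zeb2. No strand setting is given for the counting, so for Prox1os and Zeb2os reads from the lncRNA and from the overlapping gene cannot be told apart, and the same holds for Paupar and Pax6os1 and for Otx2os1 and the genes it overlaps. Start and end positions are not given because the build named in the submitters' processing notes, mm9, is another one. The 5 transcription factor genes are protein-coding, and none is in the named table, which is labelled as one of lncRNAs. Their own RNA was therefore not analysed here.

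The libraries held 37036986 to 52029003 counts over 87858 non-coding gene identifiers, and 1680662 to 2277225 counts over the named RNAs used here. The deposited table gives group means and a test per name, from which whole counts per library were solved; the libraries of each group are lettered a, b and c by increasing library factor and carry no replicate number. Normalized counts are counts divided by that factor. On the first principal component of the named RNAs, which held 49.7% of the variance, model library a lay at -7.88, between model libraries b and c (-25.9 and -24.6) and the AVE0991 libraries (15.9 to 23.6). The named table is labelled as one of lncRNAs, and RefSeq lists 1802 of its 2282 names as lncRNA and 56 as protein-coding. None of the 41 protein-coding markers in 8 lists for neurons, glia, vessel and ependymal cells is in it. Their absence does not mean that they were not expressed, and the labelled tissue was not checked against its defining genes.

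The 5 RNAs were chosen by their names and by their measured difference between the AVE0991 and model groups, which was already known. Their fold changes are therefore a description and carry no test. Under AVE0991, 4 of them were lower and 1, Zeb2os, was higher. In the edgeR quasi-likelihood fit across 1867 named RNAs, all 5 lay past an adjusted p of 0.05, where 16% of all names tested did (7.66% higher and 8.3% lower). Leaving out AVE0991 library a, b or c gave a count of 3, 2 or 4, and leaving out model library a, b or c gave 4, 2 or 2. Of 13 alternative fits, Lhx1os and Paupar passed in 13, Otx2os1 and Zeb2os in 9 and Prox1os in 5. Prox1os was lost even with all 6 libraries kept, under other size factors, library totals or no filter on low counts. Nothing is read from these counts. Their groups did not overlap for any of the 5, which was so for 39% of all names tested. In bulk tissue, fewer cells of a type and less RNA per cell cannot be told apart.

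Lhx1os had 876, 1114 and 1089 normalized counts across model libraries a, b and c. Under AVE0991 it had 142, 152 and 135. All 3 treated libraries were low and close together, and the lowest model library was 5.76 times the highest AVE0991 library. The group means were 1027 ± 131 and 143 ± 8.52 (SD, n = 3), a log2 fold change of -2.79 ± 0.18 (SE), or 6.91-fold lower; without model library a it was -2.90. The authors' deposited table gives the difference in means as -883, with a 95% interval from -1207 to -560. Among all names tested, 17 had a log2 fold change at least as low, Lhx1os included.

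Paupar had 471, 499 and 423 normalized counts across model libraries a, b and c, and 66.2, 93.9 and 92.7 under AVE0991. Every model library was at least 4.51 times every AVE0991 library. The means of 465 ± 38.4 and 84.3 ± 15.6 (SD, n = 3) correspond to a log2 fold change of -2.41 ± 0.20 (SE), or 5.32-fold lower, and the authors' deposited table gives a difference of -380 (95% interval -463 to -298). Model library a, which stood nearer to the treated libraries over all names, lay between the other two model libraries for Paupar, and leaving it out gave -2.41 again. In all, 28 names had a log2 fold change at least as low, Paupar included.

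Otx2os1 had a smaller difference and the widest spread of the 5. Its normalized counts were 168, 309 and 255 across model libraries a, b and c and 137, 76.5 and 86.7 under AVE0991. The groups stayed apart only narrowly, since model library a was 1.23 times AVE0991 library a. From means of 244 ± 71.0 and 100 ± 32.3 (SD, n = 3) the log2 fold change was -1.23 ± 0.32 (SE), or 2.34-fold lower. In the authors' deposited table the difference is -144, with a 95% interval of -293 to 5.31. Without model library a the log2 fold change was -1.44. Of the 1867 names tested, 107 had one at least as low as that of the full fit, Otx2os1 included.

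Prox1os had 1190, 1090 and 1219 normalized counts across model libraries a, b and c, and 662, 712 and 909 under AVE0991. AVE0991 library c was the highest of the treated libraries and came within 1.20-fold of the lowest model library. The log2 fold change was -0.57 ± 0.16 (SE), or 1.48-fold lower, the smallest of the 5, from means of 1166 ± 67.7 and 761 ± 130 (SD, n = 3). The authors' deposited table gives -405 for the difference, with a 95% interval of -675 to -135. Without model library a the log2 fold change was -0.56. A value at least as low as that of the full fit was found for 329 of the 1867 names tested, Prox1os included.

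Zeb2os was the only one of the 5 that was higher under AVE0991. It had 3472, 3110 and 2971 normalized counts across treated libraries a, b and c, against 2374, 1778 and 1637 in the model libraries. Model library a was the highest of its group, and the lowest treated library was 1.25 times it. The means were 3184 ± 258 and 1930 ± 391 (SD, n = 3), a log2 fold change of 0.78 ± 0.17 (SE), or 1.71-fold higher; without model library a it was 0.95. The authors' deposited table gives a difference of 1254 (95% interval 455 to 2053). Of the 1867 names tested, 279 had a log2 fold change at least as high as that of the full fit, Zeb2os included.

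**Figure D1:**
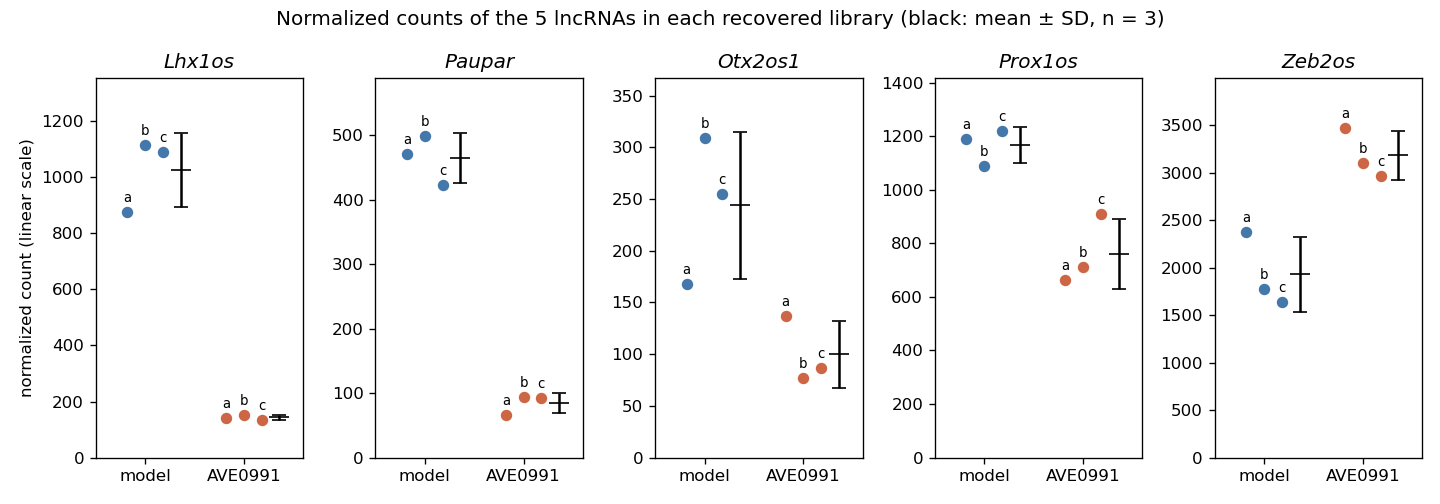
Normalized counts (linear y axis, each panel with its own scale from 0) of the 5 lncRNAs in the 3 model and 3 AVE0991 libraries; letters name the libraries and black bars give the mean ± SD. Lhx1os and Paupar show a wide gap between the groups, whereas the nearest libraries of the groups differ by 1.20-fold to 1.25-fold for Otx2os1, Prox1os and Zeb2os.

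The spread between libraries was compared with what counting alone would give. Counts per library ran from 61 for Paupar in AVE0991 library a to 3197 for Zeb2os in the same library. For Lhx1os under AVE0991 the coefficient of variation was 5.95%, below the 8.52% that counting predicts, while in the model group it was 12.8% against 2.94%. Otx2os1 varied by 32.3% under AVE0991 and 29.1% in the model group, where counting predicts 10.2% and 6.02%. Zeb2os, the most deeply counted, varied by 8.11% and 20.3% (counting 1.81% and 2.15%).

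The fold changes were recomputed with each library left out. Over these 6 fits the log2 fold change of Lhx1os was -2.90 to -2.74 and that of Paupar -2.49 to -2.29. Otx2os1 ran from -1.55 to -1.04, Prox1os from -0.70 to -0.50 and Zeb2os from 0.67 to 0.95. In each of these fits the sign was that of the full fit.

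**Figure D2:**
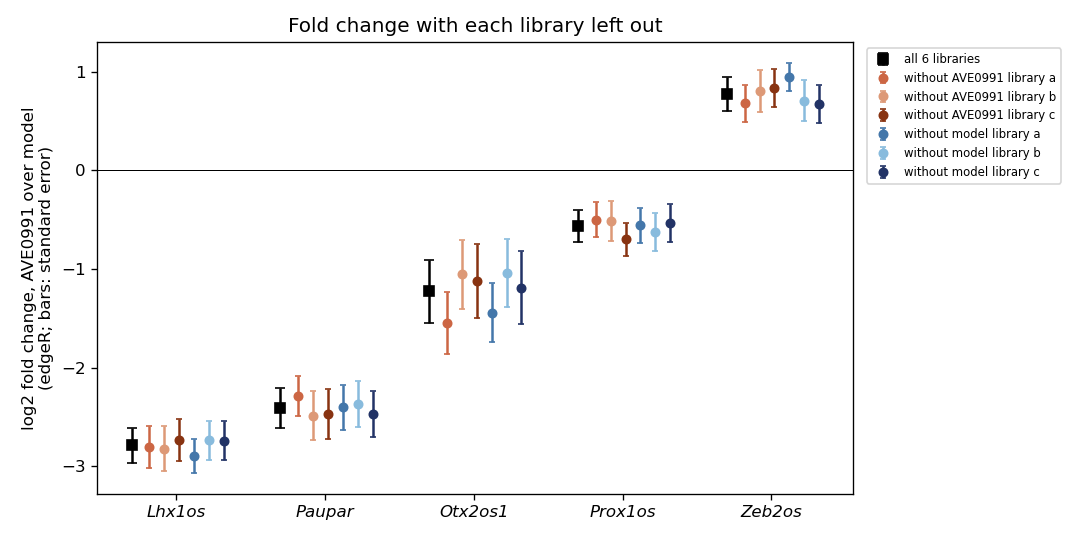
Log2 fold change (AVE0991 over model, y axis) of each of the 5 lncRNAs from the edgeR fit with all 6 libraries (black squares) and with each library left out (coloured points); bars are standard errors. Every point of a given lncRNA lies on the same side of 0, which the lack of overlap between the groups largely fixed in advance. The points of Otx2os1 are the most spread, from -1.55 to -1.04.

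Named RNAs lying near the 5 lncRNAs were examined next. Within 10 RefSeq genes on either side of the 5 lncRNAs the table held 8 names, of which 6 had enough counts to be tested. In the edgeR test 1 of the 6 fell, none rose and 5 did not pass (16.7% changed, against 16% of all names tested). Their median log2 fold change was 0.57, against -0.01 for all names tested.

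The one that fell was 4933429O19Rik, a lncRNA 8 genes from Otx2os1. It had 940, 1126 and 1024 normalized counts across model libraries a, b and c, and 235, 348 and 274 under AVE0991. The groups lay far apart, with a log2 fold change of -1.80 ± 0.19 (SE) and an adjusted p of 0.000902 (edgeR quasi-likelihood test, Benjamini-Hochberg). It stayed past the threshold in all 13 alternative fits, with -1.87 without model library a. That difference was larger in size than the -1.23 ± 0.32 of Otx2os1, and the gap between them was not tested.

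At the Pax6 locus, Pax6os1, which overlaps Paupar in RefSeq, did not pass. It had 3629, 4197 and 5285 normalized counts across model libraries a, b and c and 3244, 3337 and 3513 under AVE0991. The treated libraries were lower and close together, but the log2 fold change was only -0.33 ± 0.16 (SE; adjusted p = 0.214, edgeR), beside -2.41 for Paupar. It was -0.45 without model library a (adjusted p = 0.0551, edgeR). Gm14015, a lncRNA 10 genes from Paupar, had 37.0, 19.7 and 12.7 normalized counts across the model libraries, against 73.8, 59.2 and 55.4 in the treated ones, a log2 fold change of 1.50 ± 0.47 (adjusted p = 0.0655, edgeR). It passed with DESeq2, with limma-voom and without model library a (adjusted p = 0.0220, 0.0420 and 0.0194).

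Around Lhx1os and Zeb2os counts were low. 4930502E09Rik, 4 genes from Lhx1os, had 27.5 to 59.5 normalized counts under AVE0991 and 34.2 to 80.5 in the model group, so the groups overlapped (log2 fold change -0.24 ± 0.45, SE). Arhgap15os, 10 genes from Zeb2os, had 19.5, 25.5 and 39.3 normalized counts under AVE0991, and 13.9 in model library a. It had none in model libraries b and c, and its log2 fold change of 2.64 ± 1.22 (adjusted p = 0.183, edgeR) has no firm size. 1700019E08Rik, 8 genes away on the other side of Zeb2os, had a log2 fold change of 1.39 ± 0.96. The 2 names that were not tested, 1700109G15Rik directly next to Lhx1os and Gm29678 near Prox1os, each had 7 counts, all in 1 library.

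**Figure D3:**
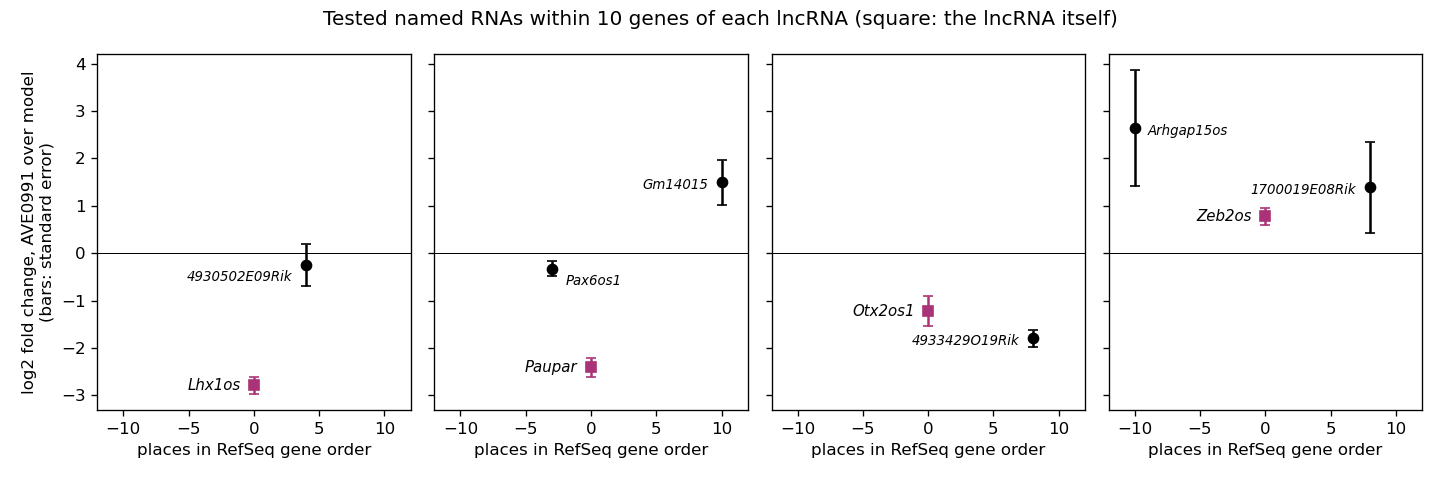
Log2 fold change (AVE0991 over model, y axis; bars are standard errors) of the tested named RNAs within 10 genes of Lhx1os, Paupar, Otx2os1 and Zeb2os, by their place in RefSeq gene order (x axis, 0 is the lncRNA itself, shown as a square). 4933429O19Rik lies at -1.80 beside Otx2os1, and Pax6os1, which overlaps Paupar in RefSeq, lies at -0.33.

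A list of further lncRNAs at developmental transcription factor loci, written from gene names, held 27 names in the table. Of these, 24 were tested: 4 rose, 2 fell and 18 did not pass (edgeR), so 25% changed against 16% of all names tested. Both shares moved with the libraries. Without model library b they were 16.7% (4 of 24) and 4.88%, without model library c 16% and 5.88%, and with a treated library left out (a, b, c in turn) 15.4%, 16% and 28% against 7.74%, 7.94% and 7.38%. Leaving out model library a gave 32% (8 of 25) and 21.8%. Their median log2 fold change was 0.13, against -0.01 for all names. Gata6os, Tbx3os2 and Vax2os had too few counts to test. Earlier results of these data were known when the list was written.

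Sfta3-ps, Dlx6os1, Sox1ot and Emx2os rose. Sfta3-ps, which lies beside Nkx2-1, had 258, 342 and 458 normalized counts across treated libraries a, b and c, against 61.9, 36.7 and 33.9 in the model libraries. Dlx6os1, the antisense RNA of the homeobox gene Dlx6, had 17492, 19978 and 14379 against 4292, 1566 and 2257. In both, model library a was the highest of its group, and every treated library was above every model library. Sox1ot and Emx2os, at the Sox1 and Emx2 loci, had log2 fold changes of 1.44 ± 0.21 and 0.82 ± 0.21 (SE), so Emx2os was close in size to Zeb2os. Without model library a the log2 fold changes of Sfta3-ps, Dlx6os1, Sox1ot and Emx2os were 3.36, 3.22, 1.64 and 1.00, against 3.04, 2.73, 1.44 and 0.82 with it. Emx2os lost its call without any 1 of AVE0991 libraries a, b and c or model libraries b and c (adjusted p = 0.0703, 0.0672, 0.112, 0.125 and 0.119, edgeR).

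Dlx4os and Hotairm1 fell. Dlx4os, antisense to Dlx4, had 114, 212 and 248 normalized counts across model libraries a, b and c and 21.7, 50.0 and 51.4 under AVE0991, so it was low in every treated library. Its log2 fold change of -2.17 ± 0.40 (SE) lay between those of Paupar and Otx2os1, and was -2.44 without model library a. Hotairm1, at the HoxA cluster, had 74.9, 87.7 and 73.8 normalized counts in the model libraries and 13.0, 17.3 and 34.3 under AVE0991. Its call was lost without AVE0991 library a or b or model library b or c (adjusted p = 0.0618, 0.0795, 0.0911 and 0.0787, edgeR). Among those that did not pass, Pantr1, beside Pou3f3, had a log2 fold change of 0.67 ± 0.21 (adjusted p = 0.0674). It passed with library totals, DESeq2, limma-voom and without model library a (adjusted p = 0.0449, 0.0154, 0.0382 and 0.00416). Sox2ot, which overlaps Sox2, had one of -0.17 ± 0.17.

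**Figure D4:**
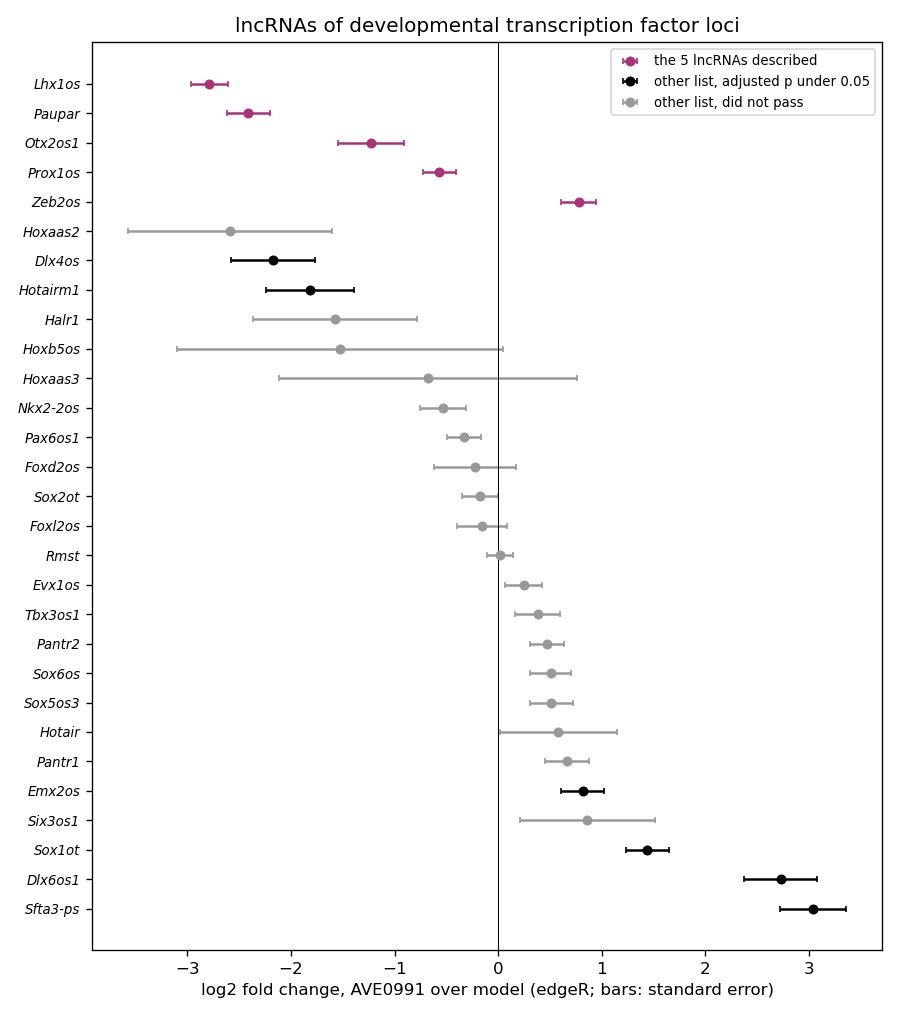
Log2 fold change (AVE0991 over model, x axis; bars are standard errors) of the 5 lncRNAs described (purple) and of 24 other lncRNAs of developmental transcription factor loci (black, adjusted p under 0.05; grey, did not pass). The 5 lie at -2.79 to 0.78; of the others 4 rose, 2 fell and 18 did not pass.

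LncRNAs listed for other brain regions and for cell types were summed per library. Of the 5 listed lncRNAs of forebrain loci, 4 were in the table, and their summed normalized counts were 15606 to 20913 under AVE0991 and 1937 to 4818 in the model group, with model library a the highest model library. Of these 4, 3 rose and Six3os1 did not pass (edgeR). Most of each sum was Dlx6os1, with 14379 to 19978 under AVE0991 and 1566 to 4292 in the model group. Of 8 listed lncRNAs of Hox clusters, 6 were in the table, with sums of 60.8, 73.5 and 249 under AVE0991 and 249, 369 and 215 in the model group. Of these 6, Hotairm1 fell and 5 did not pass. Hoxaas2 was at 0 in AVE0991 library a. Hoxaas3 was at 0 in AVE0991 libraries a and b but had 105 normalized counts in AVE0991 library c, against 57.3, 104 and 11.9 across the model libraries. Hoxb5os was at 0 in AVE0991 libraries a and b, as it was in model library c. The log2 fold changes of Hoxaas2 and Halr1 were -2.59 ± 0.99 and -1.58 ± 0.79 (SE). Those of Hoxb5os and Hoxaas3 were -1.52 ± 1.57 and -0.68 ± 1.44, and only Hotair went the other way, at 0.58 ± 0.56. The median of the 6 was -1.55, from low counts. Of 5 listed neuron-enriched lncRNAs, 3 were in the table, and the counts of Meg3 were not solved. For the others, Miat and Mirg, the sums were 39915 to 43920 under AVE0991 and 19858 to 31551 in the model group. Miat rose (log2 fold change 0.96 ± 0.22, SE; adjusted p = 0.0223, edgeR), a call lost without any 1 library except model library a (adjusted p from 0.0560 to 0.0867), and Mirg did not pass (0.04 ± 0.17). For the 4 RNAs of the glia-enriched list (Neat1, Pantr1, Sox2ot and H19, the last of which is not a glial marker and was listed there in error) the sums overlapped, at 22207 to 40604 and 25099 to 29412. H19 fell (log2 fold change -1.72 ± 0.31, SE; adjusted p = 0.00996, edgeR) and the other 3 did not pass. The part of these differences in the values of the 5 lncRNAs was not tested.

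RNAs with the spelling of opposite-strand names formed a wider comparison. The list took every name ending in os, ot or as, with or without a digit. It was made by spelling alone, so it also held names that do not denote an opposite strand, such as Gas5, Sox1ot and Sox2ot. Of 137 such names, without the 5, 124 were tested: 9 rose, 6 fell and 109 did not pass (edgeR). This was 12.1%, against 16% of all names tested, with a median log2 fold change of -0.04. The count was 4 to 27 with a library left out, lowest without model library b and highest without model library a, and 6, 7, 8 and 6 without AVE0991 library a, b or c or model library c. DESeq2 gave 25.

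Tmem132cos fell by a size near that of Paupar. It had 665, 1283 and 1167 normalized counts across model libraries a, b and c, against 229, 247 and 218 in the treated ones, giving a log2 fold change of -2.11 ± 0.26 (SE; adjusted p = 0.00168, edgeR), or -2.36 without model library a. As with Lhx1os, the treated libraries lay close together and model library a was the lowest of its group. Igf2os, Ppp2r2cos and Brip1os also fell, with log2 fold changes of -1.55, -0.65 and -0.47. Far1os had 2 counts under AVE0991 and 67 in the model group, a model to AVE0991 ratio of 28.7 after scaling (95% exact interval 7.64 to 242, counting error only). Igf2os lost its call without model library b (adjusted p = 0.0509), and Far1os, Ppp2r2cos and Brip1os lost theirs in each fit with a library left out other than model library a. Far1os also lost its call without a filter on low counts, and Brip1os without that filter, with other size factors and with library totals.

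Besides Dlx6os1 and Sox1ot, the largest rises were those of Grip1os1, Grip1os2, Gad1os and Chn1os3. Gad1os, opposite to the gene of a GABA-synthesizing enzyme, had 338, 221 and 252 normalized counts across treated libraries a, b and c, against 165, 115 and 137 in the model libraries (log2 fold change 1.02 ± 0.25, SE). Chn1os3 had a log2 fold change of 0.83 ± 0.18, close to that of Zeb2os, and Grip1os1 and Grip1os2 had 1.70 and 1.03. Grip1os1 lost its call without AVE0991 library a or model library b, Gad1os without treated library a or c or without model library b or c, and Grip1os2 and Chn1os3 without any 1 library except model library a. Kcnq1ot1, Cdr1os and Oip5os1, the most abundant that did not pass, had log2 fold changes of 0.03 ± 0.09, 0.17 ± 0.13 and -0.34 ± 0.26.

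The 5 lncRNAs were last compared across the 6 libraries with each other and with 518 names that are not clone names, by Pearson's r of log2(normalized count + 1). These points share the libraries and the group difference, so r is a description. Lhx1os and Paupar followed each other most closely (r = 0.986). Zeb2os ran opposite to each of the other 4 (r from -0.928 to -0.858), and Otx2os1 and Prox1os were the least alike of the 4 that were lower (r = 0.690). Without model library a, a choice made after seeing the data, these values were 0.988 for Lhx1os and Paupar, -0.988 to -0.858 for Zeb2os and 0.728 for Otx2os1 and Prox1os.

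Lhx1os was most like the miRNA loci Mir34a, Mir6408 and Mir3107 (r = 0.997, 0.995 and 0.994). These counts come from total RNA at the locus and are not those of the mature miRNA. Mir34a, for one, had 3281, 4257 and 4177 normalized counts across model libraries a, b and c and 1214, 1195 and 1224 under AVE0991, the same order of model libraries and the same narrow treated group. For Paupar the nearest names were Trp53cor1, the lncRNA also called lincRNA-p21, with Mir7021 and Snhg8 (r = 0.996, 0.994 and 0.990). Trp53cor1 differed less, with 218, 215 and 220 normalized counts across the model libraries, against 118, 135 and 136 under AVE0991. Otx2os1 was most like the loci Mir5046, Mir6406 and Mir1191 (r = 0.982, 0.982 and 0.980), whose log2 fold changes were -0.73, -0.25 and -0.08, so a high r did not mean an equal size. Prox1os was most like Hotairm1 (r = 0.976), and library c was the highest treated library in both, then Mir3113 and Mir6909 (r = 0.967 and 0.965). Zeb2os was most like Trerf1, Cd55os and Rps4l (r = 0.995, 0.987 and 0.986), and in all 3, as in Zeb2os, model library a was the highest model library. Trerf1 had 1129, 944 and 989 normalized counts under AVE0991 and 654, 379 and 350 in the model group. For these pairs r was 0.957 to 0.999 without model library a.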

How the data were processed

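The samples were 3 model and 3 AVE0991 samples, grouped by title. Per the submitters' processing notes, the processing used build mm9, STAR 2.7.7a and DESeq2 1.10.1, and per the labels' protocols FastQC 0.11.8 and fastp 0.19.5; the counter, its annotation and its strand setting were not given in the sources used here. Deposited counts per identifier served for depth. Per the file headers, the authors' named table gives a mean signal per group (counts divided by library factors), the difference of means with its statistic, degrees of freedom and interval, an unadjusted p-value, the ratio of means and its log2; the FPKM and TPM tables and the comparison by identifier hold no names and were not used.

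A group mean was taken as the average of 3 whole counts, each over its library factor. The statistic and the degrees of freedom were read as those of an unequal-variance t-test, from which the variances follow. A single set of whole counts matched both mean and variance (relative tolerances 1e-09 and 1e-06) for 2240 of the 2247 names above 0 (99.69%). Of the rest, 3 had several sets, and 4 had a group mean above 200000 and were left unsolved by rule. None of these entered the totals over named RNAs or any fit. The simulated data left out names above that level too. On simulated data 2229 of 2236 names had 1 set, and all 2229 were right. The main test was edgeR 4.0.16 (quasi-likelihood, TMM, filterByExpr, R 4.3.3) over 1867 names; the threshold was 0.05 after Benjamini-Hochberg adjustment, and standard errors are log2 fold changes over the square root of F. In 1 simulation with 3 libraries per group (1854 names tested, 100 changed by 1 and 100 by 2 on the log2 scale) the test called 69% and 100%, and 3.98% of its calls were names simulated without a change. Counts were drawn independently, with the same dispersion of 0.05 for every name and no shifted library. These shares need not hold for the real counts, whose spread differs between names.

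The members and lists were chosen with earlier results of these data known. Named in the text are the 5 lncRNAs; per list up to 6 past the threshold in each direction by size and the 3 most abundant that did not pass; and, for each of the 5, the 3 names most alike (mean log2 CPM of at least 1). Other RNAs of the marker lists, the neighbours beyond this rule and those with too few counts were named after their values were seen. Of 2282 names, 2271 matched RefSeq. The alternatives were each library left out, median-of-ratios size factors, unscaled totals, 2 other filters, robust fitting, and the tests of limma-voom (3.58.1) and DESeq2 1.42.0. Pearson's r without model library a was added after seeing the data. A planned description of promoters was not run.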

Additional observations from a re-analysis of the deposited data

How the results depend on the processing

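The log2 fold changes of the 5 lncRNAs moved by less than the spread between replicates in every alternative run, the ratio of the authors' means included, and none changed sign. With a library left out this was largely fixed in advance. Dropping 1 of 3 libraries can hardly move a group mean by more than that spread, or reverse a sign where the groups do not overlap. Over the fits with a library left out the log2 fold changes ran from -2.90 to -2.74 (Lhx1os), -2.49 to -2.29 (Paupar), -1.55 to -1.04 (Otx2os1), -0.70 to -0.50 (Prox1os) and 0.67 to 0.95 (Zeb2os), and 2 to 4 of the 5 were past the threshold, where fewer samples enter. With all 6 libraries kept, 4 of the 5 passed with other size factors, library totals or no filter, and Prox1os was lost. The authors' own test was read as an unequal-variance t-test on normalized counts, with 2.02 to 3.47 degrees of freedom for the 5. Unlike the edgeR fit, it shares no variance between names, so the 2 counts of calls are not alike. Adjusted over the table, 0 of the 5 passed by this t-test. Its smallest adjusted p was 0.0811, and it had 423 of 2247 names at an unadjusted p under 0.05. The other lists gave 4 to 8 (developmental loci), 4 to 27 (opposite-strand names) and 1 to 3 (neighbours) without a library, and all names 93 to 417, against 298 with all 6 libraries. DESeq2 gave 25 of 124 opposite-strand names and 2 of 6 neighbours, where it called 411 of all 1867 names. With limma-voom 3 of 6 neighbours passed, where it called 334 of all 1867. The cause of these differences from the main fit was not tested. Of 16 RNAs of these lists named as changed, 6 passed in all 13 alternatives, 10 were lost in at least 1, and none changed sign. Of those that did not pass, signs changed for Kcnq1ot1 (log2 fold change -0.034 to 0.102 with a library left out; below 0 without model library b) and 4930502E09Rik (-0.509 to 0.079; above 0 without library b of either group, 0.029 and 0.079). No paired analysis was possible because the recovered libraries carry no replicate number.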
